A study of Mus musculus with 4 samples.

Results

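Accessible regions at least 2 kb wide on the autosomes were examined in hearts of mice at postnatal day 14. They were chosen by width alone, as intervals whose end minus start plus 1 was 2000 bp or more, and 3520 of the 87948 intervals (peaks) in the deposited table met this rule. ATAC-seq, which reads out open chromatin as the places where a transposase can insert sequencing adapters, had been run on 2 Carm1 mutant and 2 wild-type heart libraries. Carm1 (Prmt4) methylates arginines in histones and in transcriptional coactivators, and the series asks how it acts on chromatin in the maturing heart. The labels name the genotype only as Carm1 mutant: the allele, any Cre driver, the strain, the sex and the number of animals per library are not given there, so how far the enzyme was lost, and in which cells, is not known here. Both genotypes share the age and the tissue. The labels do not say that libraries came from separate animals, so p-values measure the spread between these libraries, which may be technical in part.

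A wide ATAC-seq peak marks a stretch over which nucleosomes are displaced at many neighbouring positions, as at CpG island promoters, where unmethylated CG-rich DNA lies around the start of a gene, or at dense groups of enhancers. In heart muscle such stretches are known at genes of contraction and of cell identity, and at genes that respond quickly to signals. The transposase also cuts any long exposed stretch more often than a short one, so a wide peak collects more reads, and its value is known more precisely than that of a narrow one.

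Promoter sequences are shown for 5 genes whose start lies inside a wide peak, because they span 6 to 53 CG pairs and because 4 of the 5 peaks passed the test for a difference between genotypes. Txnip encodes a protein that restrains glucose uptake (chr3:96557707-96558006, plus strand), Hcn2 a pacemaker channel (chr10:79716384-79716683, plus strand) and Adprhl1 a relative of the ADP-ribosylhydrolases that is found in heart (chr8:13254113-13254412, minus strand), and all 3 peaks were higher in the mutant. Cdk14 encodes a cyclin-dependent kinase (chr5:5380202-5380501, minus strand), and its peak was lower. Abhd11, a mitochondrial hydrolase gene (chr5:135008902-135009201, plus strand), lies in the gene-end peak of the highest level per kb, which did not pass the test. Each stretch covers 250 bases before the start to 50 after it, from RefSeq on GRCm38.p6 (the assembly of mm10), read 5′ to 3′ on the gene's own strand, and capitals mark each CG pair.
Txnip: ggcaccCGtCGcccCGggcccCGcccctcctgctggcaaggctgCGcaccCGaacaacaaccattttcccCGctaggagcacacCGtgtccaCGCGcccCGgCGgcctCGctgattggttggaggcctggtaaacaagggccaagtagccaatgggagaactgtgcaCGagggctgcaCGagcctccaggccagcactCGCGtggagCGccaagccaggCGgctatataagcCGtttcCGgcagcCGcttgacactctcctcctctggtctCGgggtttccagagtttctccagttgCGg
Hcn2: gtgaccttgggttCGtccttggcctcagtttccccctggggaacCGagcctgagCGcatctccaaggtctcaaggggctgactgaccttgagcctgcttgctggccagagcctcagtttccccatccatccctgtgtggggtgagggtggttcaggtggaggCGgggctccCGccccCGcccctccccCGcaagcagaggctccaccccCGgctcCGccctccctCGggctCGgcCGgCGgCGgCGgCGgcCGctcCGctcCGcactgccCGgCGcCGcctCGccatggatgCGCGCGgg
Adprhl1: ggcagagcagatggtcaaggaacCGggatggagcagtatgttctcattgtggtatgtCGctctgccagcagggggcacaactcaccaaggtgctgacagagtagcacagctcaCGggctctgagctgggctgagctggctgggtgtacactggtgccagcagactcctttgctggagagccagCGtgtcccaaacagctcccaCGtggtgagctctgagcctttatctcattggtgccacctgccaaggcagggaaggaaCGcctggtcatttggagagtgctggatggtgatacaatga
Cdk14: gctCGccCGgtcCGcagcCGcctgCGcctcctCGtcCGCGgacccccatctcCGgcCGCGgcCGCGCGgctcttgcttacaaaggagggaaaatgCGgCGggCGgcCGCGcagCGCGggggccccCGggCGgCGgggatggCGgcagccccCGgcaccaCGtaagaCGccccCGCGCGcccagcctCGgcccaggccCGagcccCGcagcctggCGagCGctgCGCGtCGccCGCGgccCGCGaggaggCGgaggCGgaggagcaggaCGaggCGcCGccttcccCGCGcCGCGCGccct
Abhd11: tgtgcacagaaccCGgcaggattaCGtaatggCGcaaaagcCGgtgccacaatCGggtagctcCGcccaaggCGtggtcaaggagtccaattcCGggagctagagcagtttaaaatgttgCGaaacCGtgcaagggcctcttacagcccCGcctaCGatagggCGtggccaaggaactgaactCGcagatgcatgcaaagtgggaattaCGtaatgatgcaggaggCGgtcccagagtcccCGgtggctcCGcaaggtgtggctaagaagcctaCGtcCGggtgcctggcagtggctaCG

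The Cdk14 stretch holds 53 CG pairs and is 81.3% G or C. The Hcn2, Txnip and Abhd11 stretches hold 26, 24 and 21 pairs, and the Adprhl1 stretch holds 6. Among all promoters of the RefSeq table that lay inside wide peaks, 2436 promoters of 1958 genes, the median was 25 CG pairs with 65.3% G or C, and the CG pairs stood at 0.807 of the number their C and G content predicts. Promoters inside narrower peaks had a median of 22 pairs and those inside no peak a median of 4, over 7347 and 10302 promoters. The GC box GGGCGG, searched on both strands, stood in 75.9% of promoters inside wide peaks and in 47.0% of all 20085 autosomal promoters of the table. The TATA box letters TATAAA, also on both strands, stood in 5.09% of promoters inside wide peaks against 12.7% of all. Promoters inside narrower peaks were near those inside wide ones, with 67.9% for the GC box and 5.78% for the TATA box. Those inside no peak had 25.3% and 19.5%, so most of the contrast with all promoters was not particular to wide peaks. Txnip, Hcn2, Cdk14 and Abhd11 hold the GC box letters, and Adprhl1 does not. The 15 promoters inside wide peaks that were higher in the mutant had a median of 13 CG pairs, against 25 in the 2420 promoters inside wide peaks that did not pass the test. These are descriptions of letters in a fixed window, and few promoters stand behind the value of 13.

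Wide peaks were mostly at genes. Of the 3520, 2276 (64.7%) lay within 1 kb of an end of a protein-coding gene and are called gene-end peaks here, against 16.1% of the 83092 narrower autosomal peaks. Distance was taken from the edge of the peak, so a wider peak meets this rule more easily by its length alone. How much of the contrast comes from that was not tested. Strand was known for genes with an entry in the promoter table. By that measure 1660 of the gene-end peaks lay at a gene start, 165 at the other end of a gene without a start, and 451 at a gene of unknown strand. The other 1244 lay away from gene ends, at a median of 12417.5 bp from the nearest. Of these, 970 lay within a gene and 216 lay more than 50 kb from any protein-coding gene end. Together the wide peaks made up 4.06% of autosomal peaks and 15.7% of the autosomal peak length. Their share of a chromosome's peaks ran from 2.76% on chromosome 13 to 6.11% on chromosome 11.

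Gene-end wide peaks held an end of 2756 protein-coding genes, 13.3% of the 20665 on the autosomes. A single gene was held by 1661 peaks, 2 genes by 565, 3 genes by 47 and more by 3. The fullest was a peak of 9490 bp on chromosome 17 that held ends of Stub1, Rhbdl1, Jmjd8, Rhot2 and Wdr24. In 65 peaks a whole protein-coding gene lay inside the peak. Peaks that held 2 or more genes made up 27.0% of gene-end wide peaks, against 19.7% of gene-end peaks at least 1 kb and under 2 kb wide, whose smaller width leaves less room for a second gene.

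The genes held were read against 16 lists chosen with earlier results of these data known. Immediate early genes, which encode factors induced within minutes of a signal, were held most often: 13 of 14 had a wide gene-end peak, among them Fos, Jun, Junb, Egr1, Atf3 and Myc. Effectors of the Hippo, TGF-beta and Wnt pathways followed with 17 of 25 (68.0%), including Yap1, Smad6, Smad7 and Ctnnb1. Genes of the adult contractile apparatus had 14 of 21 (66.7%), including Myh6, Tnnt2, Actc1 and Mybpc3, and genes of calcium handling and ion channels had 11 of 17 (64.7%), including Ryr2, Atp2a2 and Pln. Fatty acid oxidation genes had 11 of 19 (57.9%), fetal contractile and stress genes 6 of 12, and cardiac transcription factors 7 of 16 (43.8%), among them Gata4, Gata6 and Hand2. The fibroblast and matrix list also had 7 of 16 and the cell cycle list 6 of 15. Housekeeping genes had 4 of 9 (44.4%), so a wide peak was not particular to the cardiac lists. Ribosomal protein genes had 5 of 20, arginine methyltransferases and their coactivator partners 4 of 16, endothelial genes 4 of 18 (22.2%), macrophage and mural genes 1 of 10 each, and Hox genes 0 of 25. The tissue label was read on gene-end peaks of any width: 8 of 8 cardiomyocyte markers had one, at 43.1 to 295 CPM (counts scaled to a common library size), and 6 of these were wide. Among markers of other cells, 1 (Col1a1) had a wide peak. Gene-end peaks of any width stood at 6 of 6 fibroblast, 6 of 6 mural and 5 of 6 endothelial markers. Their highest levels were 36.3, 26.6 and 29.1 CPM. Of the Schwann and neuronal markers 2 of 5 had a gene-end peak. In contrast, 4 of 5 macrophage and leukocyte markers and 4 of 6 genes not used in heart had no gene-end peak at all.

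The 5 widest peaks lay within Ttn, the giant sarcomere protein titin (17794 bp), at the clock gene Per1 (11108 bp), at Rhof and the histone methyltransferase gene Setd1b (10985 bp), near an end of Frmd8 and of the noncoding gene Neat1 (9735 bp), and at the MAP kinase phosphatase gene Dusp1 (9604 bp). Per1 had 272 and 302 CPM in the mutant libraries and 291 and 294 CPM in the wild-type libraries, and the groups overlapped. Of these 5, the Ttn peak passed the test, and the log2 fold changes of the other 4 lay between -0.02 and 0.19. At the edge of the rule, peaks at Lsm14b and B4galnt1, 1 bp under 2000 bp and so left out, had 22.4 and 11.6 CPM per kb.

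Wide peaks had higher levels than peaks in general, also per kb. The median was 48.2 CPM per peak, against 5.55 CPM over all autosomal peaks, and 17.8 against 10.4 CPM per kb. Autosomal peaks of 1500 to 1999 bp had a median of 17.4 CPM per kb, so the level per kb did not set wide peaks apart from them. Within the wide peaks, Spearman's rho between width and CPM per kb was 0.036 over 3520 peaks, and between width and CPM it was 0.463. Over all 86612 autosomal peaks it was 0.344 between width and CPM per kb. Peaks are not independent replicates and share the same libraries, so these are descriptions. The median count per wide peak was 834, against 96 over autosomal peaks, and the median standard error of the log2 fold change was 0.15 against 0.28. The library totals ran from 15945420 to 19091969 counts over all peaks.

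A smaller share of wide peaks than of all peaks differed between the genotypes, though not away from gene ends. Those that did differ were mostly higher in the mutant. With edgeR's quasi-likelihood test over the whole table, at a Benjamini-Hochberg adjusted p under 0.05, 112 of the 3520 were higher and 20 lower in the mutant, 3.75% in all, and 3388 did not pass. Over all 87948 peaks 5.50% were called, 3.05% higher and 2.45% lower. Thus the share of wide peaks called higher, 3.18%, was close to that of the table, and the share called lower, 0.568%, was below it. Higher peaks made up 84.8% of the calls among wide peaks and 55.4% of the calls over the table. They made up 75.2% of the calls among peaks of 1500 to 1999 bp. Among narrower autosomal peaks they made up 79.2% of the calls within 1 kb of a gene end and 52.9% away from gene ends. The lean to higher calls was thus not particular to wide peaks. All 3520 passed the filter on low counts. The median log2 fold change was 0.05 over wide peaks and 0.00 over the table. Over wide peaks it was 0.01 with scaling by total counts and -0.02 without mutant replicate 1. In bulk tissue, a change in the share of a cell type and a change in accessibility per cell cannot be told apart.

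Position divided the wide peaks. At gene ends 35 were higher and 2 lower of 2276 (1.63%), and away from gene ends 77 were higher and 18 lower of 1244 (7.64%). Narrower peaks showed a like gap, with 2.12% called at gene ends and 6.23% away from them, so the gap went with position at either width. Away from gene ends wide peaks were called more often than narrower ones, and at gene ends less often. Gene-end peaks, which were called less often at either width, made up 64.7% of wide and 16.1% of narrower peaks. The smaller share called over all wide peaks thus goes with this mix of positions, and away from gene ends it was not seen. Among gene-end wide peaks, those at a gene start had 11 higher and 1 lower call of 1660 (0.723%), those only at the other end 12 and 1 of 165 (7.88%), and those at genes of unknown strand 12 and 0 of 451 (2.66%). The mean log2 level of gene-end wide peaks minus that of wide peaks away from them was 0.36 and 0.31 in the mutant libraries and 0.35 and 0.39 in the wild-type libraries, on the log2(CPM + 1) scale. The groups overlapped, and the difference of -0.03 had an exact permutation p of 0.667 (two-sided; 2 against 2 cannot go below 0.333). A difference in counts of calls was therefore not matched by a shift of the average level larger than the spread between libraries.

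**Figure D1:**
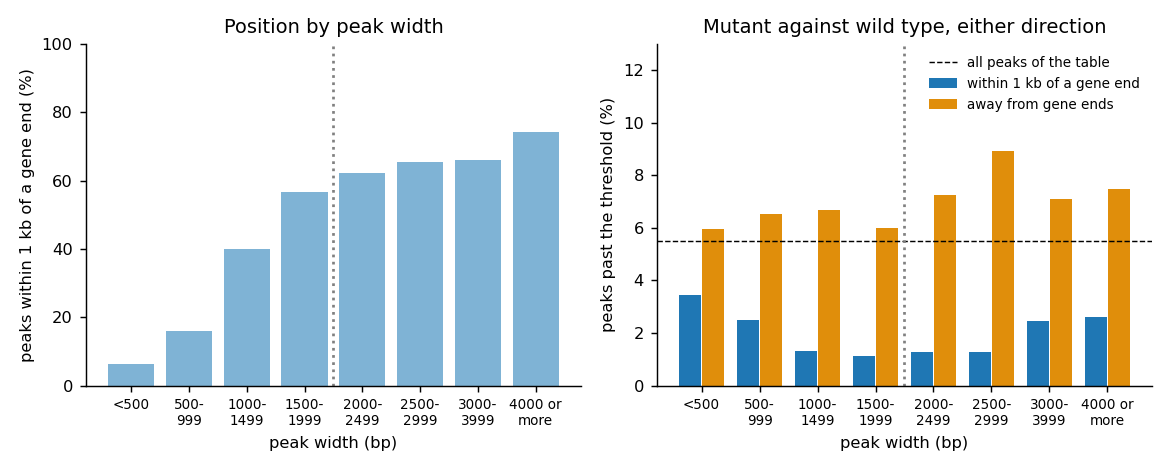
Left, the share of autosomal peaks that are gene-end peaks (%) by peak width (bp). Right, the share of peaks past the threshold in either direction (%) by width, for peaks within 1 kb of a gene end (blue) and away from gene ends (orange), with 5.50% over all peaks as a dashed line. The dotted line marks 2000 bp. The share at gene ends runs from 6.46% of peaks under 500 bp to 74.1% of those of 4000 bp or more. Part of this rise is built in, since a longer peak reaches a gene end more easily. In each width class the share past the threshold is higher away from gene ends.

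**Figure D2:**
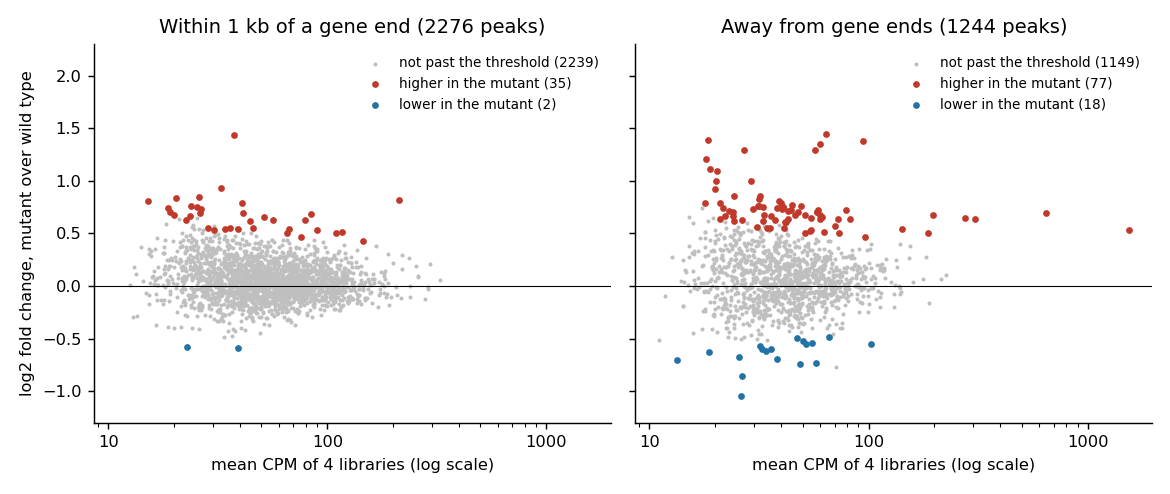
Log2 fold change, mutant over wild type, against the mean CPM of the 4 libraries (log scale) for the wide peaks within 1 kb of a gene end (left, 2276 peaks) and away from gene ends (right, 1244 peaks). Red points are higher and blue points lower in the mutant at an edgeR adjusted p under 0.05. Most red and blue points stand on the right, and the strongest peaks away from gene ends are red.

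The number of calls depended on each library. Without wild-type replicate 2 there were 8 higher and 1 lower calls, and without wild-type replicate 1 there were 55 and 2. Without mutant replicate 1 there were 150 and 81, and without mutant replicate 2 there were 419 and 54. With 1 library left in a genotype, its spread is assumed to equal that of the other pair, so both the fold and the estimated spread differ between these fits. The folds of the called peaks kept their direction in each of these fits: the median log2 fold change of the 112 higher peaks was 0.68 with all libraries and from 0.56 (without wild-type replicate 2) to 0.85 (without wild-type replicate 1), and that of the 20 lower was -0.60 and from -0.65 to -0.59. Of the 112 higher wide peaks, 6 were called whichever library was left out: 2 near Hnf4g, 2 at Pdk4, 1 within Sorcs2 and 1 near Gm45988. Of the 20 lower, 0 were. Of these 6, DESeq2 called the one in Sorcs2, and without mutant replicate 2 the log2 fold changes near Hnf4g were 0.59 and 0.57, against 1.35 and 1.44 with all libraries, and that near Gm45988 was 0.60, against 1.37. Among the peaks below, the calls at Ccn2, Adamtsl5, Adprhl1, Depp1, Myc and Hadha were lost without wild-type replicate 1. So were those near Igdcc3, within Myl2 and Cspg4, at Mir1a-1hg, and at the peak of Mroh2a and Hjurp. The Ttn peaks with log2 fold changes of 0.86 and 0.68 were lost without it too. Losses with DESeq2 and other settings are not named for every peak. Replicate 2 of the wild type is named here once for the peaks below: unless said otherwise, each call was lost without it. Without it the share called was 0 of 1660 at gene starts, and 3 higher and 0 lower of the 216 peaks over 50 kb away.

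Among gene-end peaks, 35 were higher, with log2 fold changes from 0.43 to 1.43 (a median fold of 1.57). The smallest p belonged to Pdk4, whose kinase shuts off pyruvate oxidation and so favours fatty acids as fuel. Its wide peak of 3814 bp at the far end of the gene (chromosome 6, 5483956 to 5487769, mm10) had 72.0 and 37.3 CPM in mutant replicates 1 and 2, against 21.4 and 19.2 CPM in the wild-type libraries. Both mutant libraries were above both wild-type libraries, and they lay far apart from each other. The log2 fold change was 1.43 ± 0.21 (SE; adjusted p = 0.00121 by edgeR), and the call stayed without each library, with a log2 fold change of 0.88 without mutant replicate 1, but not with DESeq2. A second wide peak within Pdk4, 2191 bp and 4707 bp from the gene's end, had 35.6 and 17.9 CPM in the mutant and 11.5 and 8.98 CPM in the wild type, a log2 fold change of 1.39 ± 0.25 (SE; adjusted p = 0.00379 by edgeR), also not called by DESeq2 and with a log2 fold change of 0.80 without mutant replicate 1.

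Txnip, which restrains glucose uptake, lies whole within a wide peak of 7254 bp (chromosome 3, 96556062 to 96563315). This peak had 292 and 248 CPM in the mutant libraries and 169 and 139 CPM in the wild-type libraries, the highest level among the called gene-end peaks. Its log2 fold change was 0.81 ± 0.12 (SE; adjusted p = 0.00134 by edgeR). The peak at Scx, the gene of the tendon and valve factor scleraxis, which lies inside Bop1, had 50 and 52.9 CPM in the mutant against 27.1 and 32.2 CPM in the wild type (log2 fold change 0.79 ± 0.15 SE, adjusted p = 0.00527 by edgeR). It was called without wild-type replicate 2, and not without wild-type replicate 1. At Ccn2, which encodes a matricellular protein, values were 92.3 and 114 CPM in the mutant and 63.3 and 65.5 CPM in the wild type (log2 fold change 0.68 ± 0.14 SE, adjusted p = 0.00687 by edgeR). These 3 peaks share a pattern in which the libraries of each genotype lie closer to each other than to the other genotype.

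Xirp1, an actin-binding protein of the intercalated disc, had 31.0 and 35.5 CPM in the mutant and 19.9 and 17.1 CPM in the wild type at its gene-end peak (log2 fold change 0.84 ± 0.17 SE, adjusted p = 0.00725 by edgeR). At the start of Hcn2, shown above, values were 49.6 and 36.6 CPM in the mutant and 26.9 and 18.2 CPM in the wild type (log2 fold change 0.93 ± 0.19 SE, adjusted p = 0.00744 by edgeR). Both genes act in heart muscle, one in its structure and the other in pacing. Adamtsl5, a gene of the extracellular matrix, had 65.7 and 71.9 CPM in the mutant and 45.3 and 43.7 CPM in the wild type. Zswim4, a zinc finger gene held at its far end, had 52.01 and 49.97 CPM in the mutant and 34.8 and 28.4 CPM in the wild type. Their log2 fold changes were 0.63 and 0.69 (adjusted p = 0.0117 and 0.0122 by edgeR). Adprhl1, whose promoter is shown above, had 134 and 124 CPM in the mutant against 89.3 and 92.2 CPM in the wild type (log2 fold change 0.51 ± 0.12 SE, adjusted p = 0.0207 by edgeR). Adprhl1 was taken up for its promoter and does not belong to the peaks of smallest p.

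The 2 lower gene-end peaks were at Depp1 and Cdk14. The first lay within Rassf4, 150 bp from the far end of Depp1, not at its start. Depp1, a gene induced by FOXO factors, had 34.3 and 27.9 CPM in the mutant and 49.1 and 44.9 CPM in the wild type (log2 fold change -0.59 ± 0.15 SE, adjusted p = 0.0287 by edgeR). Cdk14, with the most CG-rich promoter of those shown, had 19.2 and 17.3 CPM in the mutant and 27.6 and 27.0 CPM in the wild type (log2 fold change -0.58, SE 0.17). Its edgeR adjusted p of 0.05 lay at the threshold, and the call was also lost without wild-type replicate 1, without mutant replicate 2, with RLE scaling, with DESeq2 and with limma voom. The strongest gene-end peaks per kb did not pass the test: Abhd11 had 168 and 191 CPM in the mutant and 171 and 183 CPM in the wild type, and the peak at Gsk3a, a kinase gene of insulin and Wnt signalling, had 240 and 222 CPM in the mutant and 240 and 256 CPM in the wild type. The peak at Gm20783 had 279 and 298 CPM in the mutant and 271 and 309 CPM in the wild type. The groups overlapped at Abhd11 and Gm20783, and at Gsk3a they met.

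**Figure D3:**
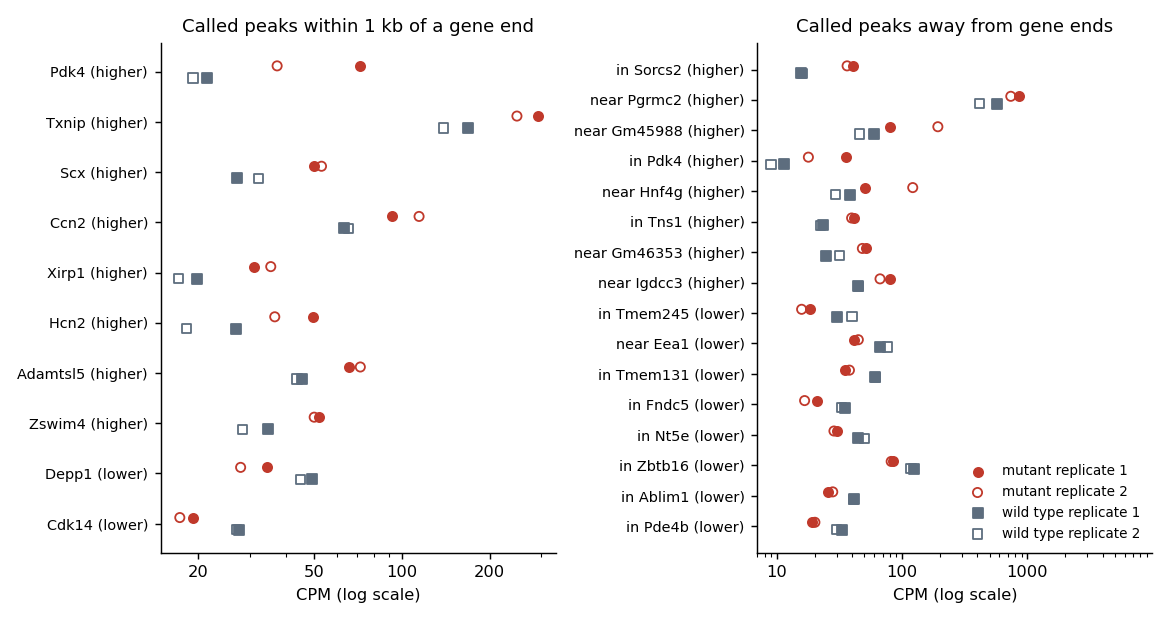
CPM (log scale) in each library for the called wide peaks with the smallest p within 1 kb of a gene end (left) and away from gene ends (right). In the row of each peak the mutant libraries (circles) are drawn over the wild-type libraries (squares), with replicate 1 filled and replicate 2 open. That vertical offset is layout only: CPM runs along the horizontal axis, and mutant values are the smaller ones in peaks labelled lower. The peaks were picked so that genotypes do not overlap. The mutant replicates lie far apart at Pdk4 and near Gm45988 and Hnf4g, and close together at Sorcs2 and Scx.

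Away from gene ends, the smallest p of any wide peak belonged to a peak of 2342 bp within Sorcs2, which encodes a sorting receptor of neurotrophin signalling (chromosome 5, 36383354 to 36385695). It had 40.5 and 36.4 CPM in the mutant libraries and 15.5 and 15.9 CPM in the wild-type libraries. The log2 fold change was 1.29 ± 0.17 (SE; adjusted p = 0.000326 by edgeR), and the call held in every alternative run for single peaks, each library left out included. Within Tns1, which encodes the focal adhesion protein tensin, a peak had 41.1 and 39.6 CPM in the mutant and 23.2 and 22.2 CPM in the wild type (log2 fold change 0.83 ± 0.15 SE, adjusted p = 0.0048 by edgeR). Tns1 carried 21 wide peaks, more than any other gene, of which 3 were higher and 0 lower, and their log2 fold changes ran from -0.20 to 0.99.

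A peak 7891 bp from Igdcc3, a gene of the immunoglobulin superfamily, had 80.4 and 66.7 CPM in the mutant and 44.2 and 44.8 CPM in the wild type (log2 fold change 0.72, adjusted p = 0.00601 by edgeR). A peak 11538 bp from Gm46353 had 51.3 and 48.2 CPM in the mutant and 24.9 and 31.8 CPM in the wild type (log2 fold change 0.81, adjusted p = 0.00589 by edgeR), and was called without wild-type replicate 2 but not without wild-type replicate 1. Both lay between genes. The 48 higher peaks that lay away from gene ends but within 50 kb had log2 fold changes from 0.47 to 1.39, and 34 of them lay within a gene.

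Genes with more than 1 higher wide peak, picked after their values were seen, were Ttn (5 of 17), Mroh2a (4 of 4), Tns1 (3 of 21), and Amotl2, Arvcf, Lbh, Ldb3, Nfic, Pdk4 and Sulf2 with 2 each. Among these 10 genes 0 wide peaks were lower. At Mroh2a on chromosome 1 mutant replicate 2 stood apart. The strongest of its peaks, which also holds an end of Hjurp, had 49.8 and 76.3 CPM in mutant replicates 1 and 2 and 41.6 and 38.5 CPM in the wild type, and the other 3 had 14.1 to 15.6 CPM in mutant replicate 1, 35.8 to 41.1 CPM in mutant replicate 2 and 9.86 to 15.8 CPM in the wild type. Without mutant replicate 2 none of these 4 was called.

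Of the 18 lower wide peaks away from gene ends, 14 lay inside a gene, much as 78.0% of all wide peaks away from gene ends did. Within Tmem245, a transmembrane protein gene that hosts a microRNA, a peak of 2049 bp (chromosome 4, 56879119 to 56881167) had 18.2 and 15.8 CPM in the mutant and 30.4 and 39.9 CPM in the wild type (log2 fold change -1.05 ± 0.18 SE, adjusted p = 0.00276 by edgeR). This was the largest fall among the 20 lower wide peaks, and both mutant libraries were below both wild-type libraries. A peak within Fndc5, which encodes the precursor of irisin, had 21.0 and 16.7 CPM in the mutant and 35.0 and 33.0 CPM in the wild type (log2 fold change -0.85 ± 0.17 SE, adjusted p = 0.00725 by edgeR). A peak within Tmem131 had 34.7 and 38.0 CPM in the mutant and 60.5 and 61.3 CPM in the wild type (log2 fold change -0.74 ± 0.14 SE, adjusted p = 0.00529 by edgeR).

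Among the other lower peaks, one within Zbtb16, the gene of the transcription factor PLZF, was the strongest of the 8 with the smallest p. It had 84.2 and 81.9 CPM in the mutant and 125 and 118 CPM in the wild type (log2 fold change -0.55 ± 0.12 SE, adjusted p = 0.0139 by edgeR), and the gene's 6 wide peaks had a median log2 fold change of -0.39, with 1 called. A peak within Nt5e, whose enzyme makes adenosine outside the cell, had 30.1 and 28.6 CPM in the mutant and 44.6 and 50.2 CPM in the wild type. A peak within Pde4b, a phosphodiesterase that breaks down cyclic AMP, had 19.2 and 20.1 CPM in the mutant and 33.0 and 29.8 CPM in the wild type. The peaks within Ablim1, an actin-binding LIM gene, and 165337 bp from Eea1 had log2 fold changes of -0.62 and -0.73. All 8 of these were lost without wild-type replicate 2, and 6 of the 8 also without wild-type replicate 1, the exceptions being Tmem245 and the peak near Eea1.

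Genes of the adult contractile apparatus carried 64 wide peaks, of which 9 were higher, 0 lower and 55 not past the test, where 3.18% of all wide peaks and 3.05% of the table were higher. The median log2 fold change was 0.32, against 0.05 over all wide peaks and 0.00 over all peaks tested. The calls lay at 4 of the 21 genes: 5 in Ttn, 2 at Ldb3, 1 in Myl2 and 1 in Myom2. Of the 9 calls, 8 lay away from gene ends. The median was positive without each library, from 0.17 without mutant replicate 1 to 0.44 without wild-type replicate 1, while the number of higher calls was 0 without wild-type replicate 2, 4 without wild-type replicate 1, 4 without mutant replicate 1 and 32 without mutant replicate 2. Beside this, the summed level of gene-end peaks at the 8 cardiomyocyte markers was 947 and 828 CPM in the mutant libraries and 788 and 752 CPM in the wild-type libraries. Myh6, Tnnt2, Tnni3, Myl2 and Ttn are both among these markers and on the contractile list. The sum thus comes in part from the same genes and peaks and is not a separate reading. The summed level at the 6 endothelial markers was 85.0 and 79.2 CPM in the mutant and 120 and 87.4 CPM in the wild type, with no gene-end peak at Erg. At the 6 mural markers it was 90.2 and 87.3 CPM in the mutant and 79.7 and 81.5 CPM in the wild type. Fibroblast markers had 79.2 and 94.4 CPM against 76.9 and 84.8 CPM. Schwann and neuronal markers had 34.4 and 42.1 CPM against 30.2 and 38.7 CPM. In both of these lists the groups overlapped. Macrophage and leukocyte markers, with a peak at 1 of 5, had 41.8 and 36.7 CPM against 32.0 and 36.5 CPM. Whether the share of any cell type had a part in these results was not tested.

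Ttn carried 17 wide peaks over 69.3 kb in all, and the log2 fold changes of all 17 were positive, from 0.21 to 1.0. Of all wide peaks, 60.6% had a positive log2 fold change. The 17 peaks lie in the same gene and share the same libraries, and mutant replicate 1 was the highest library in each. Mutant replicate 2 was above both wild-type libraries at some of them and between these libraries at others. At the peak 30.1 kb from the start site it was below both, with 11.8 CPM against 13.8 and 12.1 CPM. The widest of the 17, with 17794 bp in the far part of the gene (chromosome 2, 76735938 to 76753731), had 203 and 133 CPM in the mutant libraries and 115 and 116 CPM in the wild-type libraries. Mutant replicate 1 was much the highest here. The log2 fold change was 0.54 ± 0.15 (SE; adjusted p = 0.0388 by edgeR), and the call was also lost without wild-type replicate 1, without mutant replicate 1 (log2 fold change 0.21) and with DESeq2. The other 4 higher peaks lay 64.3 to 92.3 kb from the start site. The one with the smallest p (76888771 to 76891649) had 46.2 and 31.1 CPM in the mutant and 22.5 and 16.2 CPM in the wild type, a log2 fold change of 1.0 ± 0.20 (SE; adjusted p = 0.00644 by edgeR). It was called without mutant replicate 1, and the other 3 were not, with log2 fold changes of 0.44, 0.23 and 0.17 in that fit, against 0.77, 0.86 and 0.68 with all libraries. DESeq2 and limma voom called neither of the last 2. The 76 narrower peaks within Ttn had a median log2 fold change of 0.23, with 1 higher and 0 lower, against 0.46 over the 17 wide ones.

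**Figure D4:**
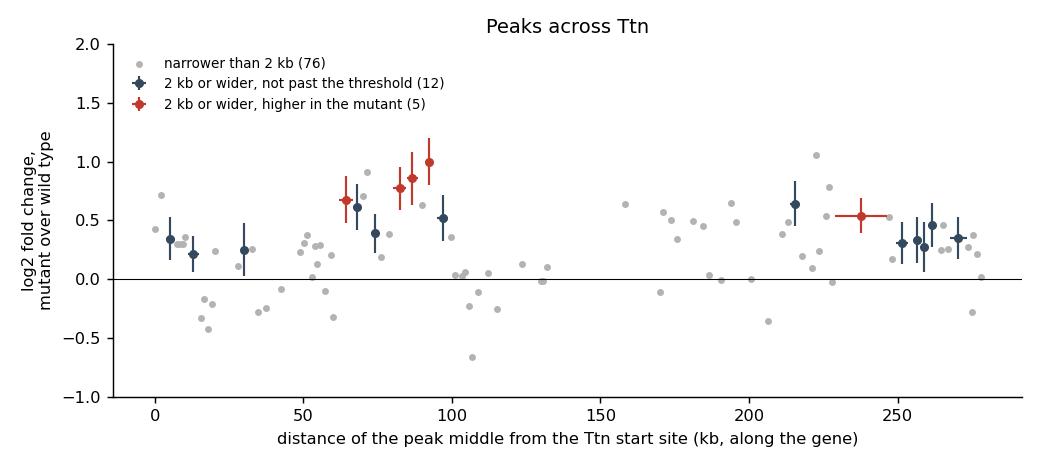
Log2 fold change, mutant over wild type, of the peaks across Ttn against the distance of the peak middle from the start site (kb). Wide peaks are shown with the standard error (vertical bar) and their width (horizontal bar), in red where higher in the mutant (5) and dark where not past the threshold (12), and grey points are the 76 narrower peaks. All 17 wide peaks lie above 0, and 4 of the 5 red ones lie between 64.3 and 92.3 kb.

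The other 4 calls of the list lay at 3 further sarcomere genes. At Ldb3, a Z-disc gene, the peak at the start (7807 bp, which also holds an end of Opn4) had 179 and 154 CPM in the mutant and 129 and 120 CPM in the wild type (log2 fold change 0.43 ± 0.12 SE, adjusted p = 0.0444 by edgeR). A second peak within Ldb3 had 119 and 104 CPM in the mutant and 80.5 and 80.4 CPM in the wild type (log2 fold change 0.47 ± 0.13 SE, adjusted p = 0.0352 by edgeR). Both were also lost with DESeq2 and without wild-type replicate 1, and the one at the start also without mutant replicate 1, with scaling by total counts and with the minimum mean CPM of 2. Myom2, an M-band gene, had 32.4 and 19.2 CPM in the mutant and 13.2 and 10.6 CPM in the wild type at a peak within it (log2 fold change 1.11 ± 0.22 SE, adjusted p = 0.00696 by edgeR), and Myl2, the ventricular regulatory light chain, had 91.5 and 81.2 CPM in the mutant and 62.6 and 59.2 CPM in the wild type (log2 fold change 0.50 ± 0.13 SE, adjusted p = 0.0303 by edgeR). The strongest wide peak of the list, 8311 bp over Myh6 and an end of Myh7, the adult and fetal myosin heavy chains of the mouse ventricle, had 325 and 308 CPM in the mutant and 280 and 267 CPM in the wild type. It did not pass the test (log2 fold change 0.21 ± 0.11 SE, adjusted p = 0.245 by edgeR).

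The counts of calls in the lists that follow stand beside 3.75% called over all wide peaks and 5.50% over the table, and in a list of few peaks 1 call more or less moves the share widely. Fetal contractile and stress genes had 10 wide peaks, with 3 higher and 0 lower and a median log2 fold change of 0.35. Besides Xirp1 these were peaks within Myh7, with 66.1 and 60.5 CPM in the mutant and 45.1 and 34.3 CPM in the wild type, and within Myh9, a nonmuscle myosin gene, with 42.6 and 59.7 CPM in the mutant and 33.3 and 27.5 CPM in the wild type. Both had an edgeR adjusted p of 0.0142. Fatty acid oxidation genes had 25 wide peaks, with 3 higher and 0 lower and a median of 0.24 (0.12 without mutant replicate 1 and 0.13 without wild-type replicate 2): the pair at Pdk4 and a peak at an end of Hadha, a beta-oxidation enzyme gene, that also holds Garem2 (25.4 and 23.7 CPM in the mutant, 15.3 and 15.5 CPM in the wild type, adjusted p = 0.0303 by edgeR). Calcium handling and ion channel genes had 24, with 2 higher and 0 lower and a median of 0.21, and Hcn2, described above, was among the higher ones. Without mutant replicate 1 this list had 1 higher and 4 lower calls and a median of 0.01.

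Cardiac transcription factor genes had 19 wide peaks, 0 of them called, with a median log2 fold change of 0.21 that was -0.01 without mutant replicate 1. Gata6 had 154 and 142 CPM in the mutant and 149 and 144 CPM in the wild type, and the groups overlapped. Immediate early genes, which had the largest share held by wide peaks, had 1 higher and 0 lower of 20 and a median of -0.03. The call was at Myc, a growth regulator, with 115 and 97.9 CPM in the mutant and 78.7 and 68.7 CPM in the wild type (log2 fold change 0.53 ± 0.13 SE, adjusted p = 0.0243 by edgeR), while Jun had 213 and 191 CPM in the mutant and 212 and 218 CPM in the wild type. With 1 of 20 called, this list was near the 3.75% called over all wide peaks.

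Hippo, TGF-beta and Wnt effectors had 2 higher and 0 lower of 37 and a median of 0.03 that was below 0 with total counts and without mutant replicate 1 or wild-type replicate 2. Both calls lay at Amotl2, which encodes an angiomotin family partner of YAP, and the stronger had 44.4 and 35.2 CPM in the mutant and 25.8 and 21.3 CPM in the wild type (adjusted p = 0.0129 by edgeR). The fibroblast and matrix list had 1 higher of 12 (Ccn2) and the mural list 1 of 2, within the pericyte proteoglycan gene Cspg4. Endothelial genes had 0 called of 7, with a median of -0.27. Leaving out wild-type replicate 1 gave a median of -0.12, as did leaving out mutant replicate 2. In this list 1 peak was lower without mutant replicate 1, and 1 was higher without mutant replicate 2. Klf2, a flow-responsive factor gene, had 67.9 and 62.6 CPM in the mutant and 78.5 and 75.8 CPM in the wild type, and did not pass the test (adjusted p = 0.296 by edgeR). Klf4, on the same list, went the other way and did not pass either. It had 51.3 and 38.7 CPM in the mutant and 36.8 and 33.3 CPM in the wild type (log2 fold change 0.36, adjusted p = 0.191 by edgeR). Cell cycle, ribosomal protein, housekeeping, macrophage, and arginine methyltransferase and coactivator lists had 0 called of 10, 5, 4, 1 and 6 wide peaks. In the last list Prmt1, the gene of the main asymmetric arginine methyltransferase, had 92.7 and 116 CPM in the mutant and 110 and 115 CPM in the wild type, and Carm1 itself carried no wide peak.

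The wide peaks farthest from gene ends were called most often. Of the 216 over 50 kb from any protein-coding gene end, 29 were higher and 7 lower (16.7%), against 7.72% called of the 20693 narrower peaks as far away and 5.74% of the 1028 wide peaks away from gene ends but within 50 kb. Of the 7 lower peaks, 4 lay inside a gene. The 3 highest levels per kb among wide peaks away from gene ends were in the group over 50 kb away. A peak 82002 bp from Iqcm (chromosome 8, 75362510 to 75366685) had 1740 and 1913 CPM in the mutant libraries and 1449 and 1080 CPM in the wild-type libraries, 370 CPM per kb on average (log2 fold change 0.53 ± 0.11 SE, adjusted p = 0.00702 by edgeR). A peak 170451 bp from Pgrmc2 (chromosome 3, 41253497 to 41256155) had 854 and 739 CPM in the mutant and 571 and 417 CPM in the wild type, and one 66176 bp from Itgb1 had 403 and 345 CPM in the mutant and 275 and 207 CPM in the wild type (adjusted p = 0.00327 and 0.00712 by edgeR). In all 3 the mutant libraries were above the wild-type libraries, and wild-type replicate 2 was the lowest. For comparison, the gene-end wide peak of the highest level, at Abhd11, had 86.1 CPM per kb.

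Not all of these 29 lay outside genes. The 6 inside a gene included 4 of the Ttn peaks, and 2 adjoining ones nearest to Slco4a1, singled out after their values were seen, lay within 1 kb of an end of Mir133a-2, the gene of a heart and muscle microRNA. The stronger of that pair, which also lay at an end of the microRNA host gene Mir1a-1hg, had 249 and 188 CPM in the mutant and 168 and 140 CPM in the wild type (log2 fold change 0.51, adjusted p = 0.0327 by edgeR). DESeq2 did not call it, and its log2 fold change was 0.29 without mutant replicate 1. That of the weaker was 0.39 in the same fit, against 0.70 with all libraries. In 4 other peaks mutant replicate 2 stood far above mutant replicate 1. They were 3 near the start of chromosome 3, 477529 to 504428 bp from Hnf4g, and 1 near Gm45988 on chromosome 7 with 79.4 and 193 CPM in mutant replicates 1 and 2 and 59.3 and 45.9 CPM in the wild type. The first of the Hnf4g group (3001597 to 3003602) had 50.9 and 122 CPM in the mutant and 38.6 and 29.2 CPM in the wild type. DESeq2 called neither this peak nor that near Gm45988.

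The 29 higher peaks shared a pattern across libraries. Wild-type replicate 1 was above wild-type replicate 2 in 29 of 29, with a median log2 ratio of 0.40, against 36 of the 48 higher peaks away but within 50 kb (median 0.20), 28 of the 35 higher gene-end peaks (median 0.12) and 67.6% of all wide peaks (median 0.07). The order mutant replicate 1, mutant replicate 2, wild-type replicate 1, wild-type replicate 2 from high to low was seen in 23 of 29 (79.3%), in 26 of the 48 higher peaks away but within 50 kb (54.2%) and in 20 of the 35 higher gene-end peaks (57.1%). Peaks called higher have the mutant above the wild type by choice, so the order adds only how the replicates stand, and no test was made of these shares. The log2 ratio between the wild-type libraries, 0.40 at the median, stands beside a median log2 fold change between genotypes of 0.70. The deposited counts do not show whether reads in these peaks also match other places in the genome, and this was not tested.

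**Figure D5:**
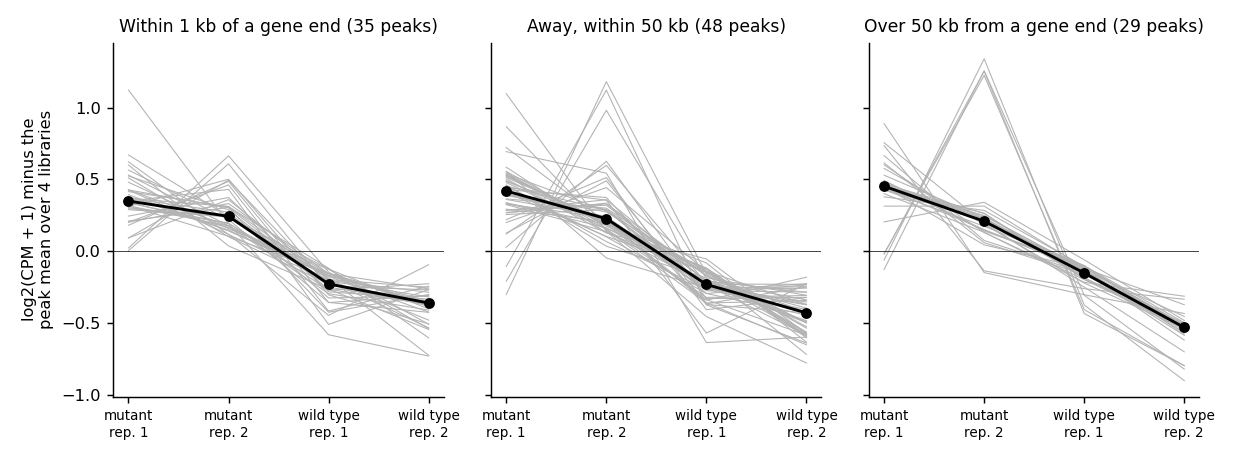
Level of each higher wide peak in the 4 libraries, as log2(CPM + 1) minus the peak's mean over the libraries, for peaks within 1 kb of a gene end (35), away but within 50 kb (48) and over 50 kb from a gene end (29). Grey lines join the values of 1 peak and black points are medians. In the right panel wild-type replicate 2 lies below wild-type replicate 1 in all 29 peaks, and mutant replicate 2 is above mutant replicate 1 in 6, far above in 4 of these.

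Over all wide peaks the libraries differed little. Wide peaks took 21.1 and 19.8% of autosomal counts in the mutant libraries and 20.4 and 19.7% in the wild-type libraries. The groups overlapped, and the difference of 0.44 percentage points had an exact permutation p of 0.667 (two-sided) and was -0.20 without mutant replicate 1. The median level was 19.3 and 17.1 CPM per kb in the mutant and 17.9 and 17.0 CPM per kb in the wild type. Thus mutant replicate 1 was the highest of the 4 libraries in both measures.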

How the data were processed

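The comparison was of 2 Carm1 mutant and 2 wild-type ATAC-seq libraries of heart. The authors deposited raw counts, whole numbers per peak with no normalization, for the 4 libraries in 1 table, and each column matched the title of 1 sample. Bowtie2, FastQC and the build mm10 are named per the submitters' processing notes, with no version. Not given in the sources used here are the peak caller, how duplicates were handled, whether reads were shifted for the enzyme, and how 1 peak set was built for the 4 libraries; these steps could change where a wide peak begins and ends, whether neighbours were merged into 1 wide peak, and its count.

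Width was end minus start plus 1, and 25 wide peaks on the X chromosome were left out. Gene ends came from a RefSeq gene table of GRCm38.p6, which gives no strand; start sites came from a RefSeq promoter table that covers 79.6% of autosomal protein-coding genes. A peak within 1 kb of either end of a protein-coding gene was a gene-end peak. Coordinates are 1-based on mm10.

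All 87948 peaks were fitted with edgeR 4.0.16 in R 4.3.3 (glmQLFTest, TMM scaling, filterByExpr, genotype as the only term), with Benjamini-Hochberg adjustment over all of them, and the rows of wide peaks were read from that fit. The filter removed 0 peaks, and the fit had 2 residual degrees of freedom. CPM is scaled by TMM-adjusted library size, and fold changes are mutant over wild type. The pipeline was tested on simulated counts. The alternatives were RLE, total-count and cyclic loess scaling, a minimum mean CPM of 2, no filter, DESeq2 1.42.0, limma 3.58.1 voom, a replicate block, each library left out, and other thresholds of width and distance. Annotation used Python 3.11.15.

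The width rule, the gene lists and the rule for naming peaks were chosen with earlier results of these data known. Named peaks were the 5 widest, those at the edge of the rule, the 3 of the highest level per kb at and away from gene ends, up to 8 higher and 8 lower of the smallest p at and away from gene ends with genotypes that did not overlap (1 per gene), and, for each list, up to 2 strongest gene-end peaks and the called ones. The smallest log2 fold change called among higher wide peaks was 0.43, so smaller differences may be missed with 2 libraries per genotype. The results of 3 items are not reported here.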

Additional observations from a re-analysis of the deposited data

How the results depend on the processing

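The excess of higher over lower calls among wide peaks was seen in every setting run, but the counts depended on the tool and on single libraries. DESeq2 called 69 higher and 12 lower wide peaks, 21 at gene ends and 60 away. With the replicate block there were 211 higher and 42 lower, 91 at gene ends and 162 away; the titles number the libraries but do not say that numbers mark a shared litter or batch, and same-numbered libraries deviated together with a correlation of 0.107. With each library left out in turn, higher calls ran from 8 to 419, lower calls from 1 to 81, gene-end calls from 2 to 230 and calls away from gene ends from 7 to 243, lowest without wild-type replicate 2 each time. A width threshold of 1500 bp gave 206 higher and 51 lower (62 at gene ends, 195 away), and 3000 bp gave 35 and 2 (16 and 21), since the number of peaks changed. With start sites alone as gene ends, 16 gene-end peaks were called. Without the peaks over 50 kb from a gene end, an alternative chosen after seeing the data, 13 lower calls were left and 59 calls away from gene ends. The difference in the share of counts in wide peaks ran from -0.20 to 1.08 percentage points with each library left out, the median log2 fold change of wide peaks from -0.018 to 0.115 and that of gene-end wide peaks from -0.0325 to 0.11, and all 3 were negative without mutant replicate 1. For the 45 called peaks named by rule, 0 changed direction in any fit, 38 were lost without wild-type replicate 2, 24 without wild-type replicate 1, 12 with DESeq2 and 0 with cyclic loess offsets. The causes were not tested.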
